A study of Mus musculus with 4 samples.

Results

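The expression of 9 marker genes of neural progenitors and glia was followed in mouse embryonic stem cells (ESC) given a histone deacetylase inhibitor. The genes were taken by symbol from the 28250 genes of the deposited expression lists, and all 9 were listed in each library. They are *Nes*, *Msi1* and *Prom1*, used as markers of neural stem cells, *Fabp7* and *Slc1a3* of radial glia, *Gfap* and *S100b* of astrocytes, and *Olig1* and *Olig2* of the oligodendrocyte lineage. The cells were TBV2, a feeder-dependent ESC line grown with leukaemia inhibitory factor (LIF). Both groups shared this background, the LIF and the 24 h of exposure. The solvent group (2 libraries) received solvent alone, and the MS-275 group (2 libraries) received 5 µM MS-275. Since the line was maintained on feeder cells, a library may hold some feeder RNA, and RNA-seq of a whole culture cannot tell apart a change in each cell from a change in the share of cells that express a gene. The samples are a single line at 1 dose and 1 time, and nothing in the labels says whether the replicates came from separate cultures, so the p-values measure the spread between these libraries.

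MS-275 (entinostat) inhibits class I histone deacetylases, enzymes that remove acetyl groups from histone tails, and acetylated chromatin is in general more permissive for transcription. In the developing brain, neuroepithelial cells turn into radial glia, which act as neural stem cells and later give rise to neurons, astrocytes and oligodendrocytes. The markers of these stages are not exclusive to the brain: several are also read in ESC, in muscle, in epithelia or in Schwann cells, so the level of a single marker does not name a cell type.

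The start regions of the markers that moved most in each direction are shown first, as the sequence around which transcription of these genes begins. RefSeq start regions (GRCm38.p6; 250 bases before to 50 after the start) were given for 7 of the 9 markers, and none was held for *Msi1* and *Olig1*. Each was also found by an exact match at a single place on mm9, the build of the alignments. Capitals mark matches on either strand to GGGCGG (the GC box), CCAAT and TATAAA. The regions lie at chr3:87774765-87775064 (*Nes*, plus strand), chr10:57504479-57504778 (*Fabp7*, plus strand), chr5:44492926-44493225 (*Prom1*, minus strand, the upstream of its 2 start regions) and chr15:8660758-8661057 (*Slc1a3*, minus strand) on mm9, and read as follows from 5′ to 3′.
Nes: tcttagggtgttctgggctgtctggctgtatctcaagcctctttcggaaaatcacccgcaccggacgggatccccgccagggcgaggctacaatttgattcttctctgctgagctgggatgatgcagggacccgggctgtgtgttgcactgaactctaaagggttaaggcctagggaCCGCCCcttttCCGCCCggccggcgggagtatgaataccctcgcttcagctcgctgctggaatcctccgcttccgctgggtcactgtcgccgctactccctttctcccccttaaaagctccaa
Fabp7: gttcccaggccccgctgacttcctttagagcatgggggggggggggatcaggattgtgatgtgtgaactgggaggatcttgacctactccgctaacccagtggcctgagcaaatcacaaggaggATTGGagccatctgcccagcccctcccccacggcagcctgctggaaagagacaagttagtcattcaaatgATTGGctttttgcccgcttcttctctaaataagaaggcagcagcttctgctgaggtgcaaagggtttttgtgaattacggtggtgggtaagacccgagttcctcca
Prom1: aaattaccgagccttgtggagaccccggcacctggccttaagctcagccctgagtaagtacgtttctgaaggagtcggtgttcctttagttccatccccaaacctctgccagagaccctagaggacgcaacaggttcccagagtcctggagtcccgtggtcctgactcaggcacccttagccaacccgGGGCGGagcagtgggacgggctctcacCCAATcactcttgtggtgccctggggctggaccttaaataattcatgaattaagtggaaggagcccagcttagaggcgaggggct
Slc1a3: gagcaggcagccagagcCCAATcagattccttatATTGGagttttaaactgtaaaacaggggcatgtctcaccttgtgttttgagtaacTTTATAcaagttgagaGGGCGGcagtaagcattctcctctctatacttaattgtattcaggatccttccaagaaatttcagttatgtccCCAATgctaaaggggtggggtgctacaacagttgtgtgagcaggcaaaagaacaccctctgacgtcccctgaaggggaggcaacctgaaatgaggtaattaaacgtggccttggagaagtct

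The *Nes* window held 2 matches to GGGCGG and none to the other motifs, and its GC content was 58.7%. The *Fabp7* window held 2 matches to CCAAT and none to GGGCGG, with a GC content of 54%. The *Slc1a3* window had the lowest GC content of the 8 windows (45.3%) and held 1 match to GGGCGG, 1 to TATAAA and 3 to CCAAT. The *Prom1* window shown held 1 GGGCGG and 1 CCAAT, and its second window, further downstream, held none of the motifs. The *Olig2* window was the most GC-rich of the windows (65%), with an observed to expected CpG ratio of 0.815, and held 2 GGGCGG, 1 TATAAA and 2 CCAAT. Those of *Gfap* and *S100b* were poor in CpG, with ratios of 0.129 and 0.145. Over all 32851 start regions of the same length, 35.7% held GGGCGG, 37.4% CCAAT, 13.6% TATAAA, 72.3% CANNTG (the E-box that basic helix-loop-helix factors such as Olig2 read) and 7.15% CACGTG, which is a form of CANNTG. The medians over these regions were a GC content of 52.7% and a CpG ratio of 0.384. Matches to CANNTG were found in the windows of *Fabp7* (2), *Prom1* (1), *S100b* (1) and *Slc1a3* (1). The *Gfap* window held no match to any of these motifs. No motif could therefore be shared by all windows of the markers with higher values.

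For each library the authors deposited 1 normalized expression value per gene, made with Genomatix, and the positions of the aligned reads. The value is a signal without a stated formula and has no unit. The libraries held 9785619 to 23467935 alignments of 35 bases, and in the alignments deposited with replicate 1 of each group 53.2% and 54.4% repeated a position, while in those deposited with replicate 2 none did. Positions were therefore also counted once each on the exons of every gene, as a second readout of the same libraries. Values and alignments of a library did not run together: in 10 of the 11 cases where a marker had at least 50 alignments in the libraries of a group, the replicate with the higher value had the lower share of the alignments. The values and the alignments may thus have been exchanged between the replicates of both groups. Such an exchange would leave every comparison of MS-275 with solvent the same within each readout, and replicate numbers are given as deposited.

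Of the 9 markers, 6 had higher values in both MS-275 libraries than in either solvent library (*Nes*, *Fabp7*, *Gfap*, *S100b*, *Olig1* and *Olig2*). Lower values in both were found for 2 (*Prom1* and *Slc1a3*), and *Msi1* overlapped between the groups. The share of all genes that separate in this way was not counted, so these counts describe the markers alone. Of the genes tested with a mean value under 0.02, 74.7% had a log2 fold change above 0, as had 57.2% of the others. The markers of a cell class did not all share a direction: *Nes* was higher and *Prom1* lower among the stem cell markers, and *Fabp7* was higher and *Slc1a3* lower among the radial glia markers. The test compared the means of the log2(value + 0.005) of the groups with limma, over the 20336 genes that reached 0.001 in 2 or more libraries, and p was adjusted after Benjamini and Hochberg. Fold changes on this scale understate those of genes with values near or under 0.005. A fit with the replicate number as a block is given beside it, since libraries with the same number deviated together. Limma shares its estimate of the spread over all genes. With the block, 4 libraries leave little information on the spread of a single gene, so these p-values rest largely on the shared estimate. With 2 libraries per group an exact permutation test of a single gene cannot give a two-sided p under 0.333.

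**Figure D1:**
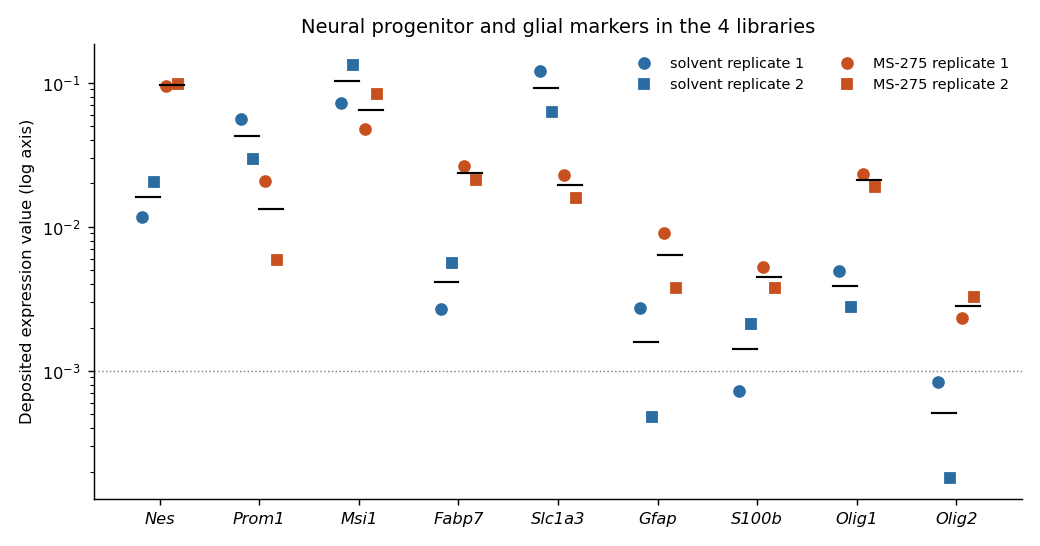
Deposited expression value (log axis) of each marker in the 4 libraries, with circles for replicate 1, squares for replicate 2 and a bar for the mean of each group. The dotted line is the value of 0.001 used to select genes. The MS-275 libraries sit above the solvent libraries for 6 markers, below them for *Prom1* and *Slc1a3*, and overlap with them for *Msi1*.

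*Nes* encodes nestin, an intermediate filament protein of neural stem cells, and lies on chromosome 3 of mm9 from 87775000 to 87784373 on the plus strand. Its value was 0.0117 and 0.0204 in solvent replicates 1 and 2, and 0.0941 and 0.0978 in MS-275 replicates 1 and 2. Both MS-275 libraries were thus far above the solvent libraries, and they differed little from each other. The solvent mean was 0.0160 ± 0.00616 (SD, n = 2) and the MS-275 mean 0.0959 ± 0.00264 (SD, n = 2), a 5.98-fold difference, and the ratio was 8.05 within replicate 1 and 4.80 within replicate 2. In the limma fit it changed by 2.29 on the log2 scale (standard error 0.565), with an adjusted p of 0.0803 without the block and 4.1e-05 with the replicate block (standard error 0.288). On its 6416 exon bases the libraries had 244 and 60 distinct positions with solvent and 673 and 636 with MS-275. Limma-voom on these positions gave 2.47 (standard error 0.489, adjusted p = 0.0145) without a block. *Nes* therefore passed on the positions with or without the block, and on the values only with it.

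*Prom1* encodes prominin-1 (CD133), a membrane protein of cell protrusions that marks several kinds of stem cell (chromosome 5, 44384864 to 44493271, minus strand). Its value was 0.0558 and 0.0295 in the solvent libraries and 0.0207 and 0.00591 in the MS-275 libraries. Every MS-275 library was below every solvent library, but replicate 2 was lower than replicate 1 in both groups, so that the groups came near each other. The solvent mean of 0.0426 ± 0.0186 (SD, n = 2) was 3.20 times the MS-275 mean of 0.0133 ± 0.0105 (SD, n = 2). The fitted log2 fold change was -1.45 (standard error 0.697, adjusted p = 0.335 without the block and 0.0026 with it). The distinct positions gave a smaller error. They numbered 202 and 207 with solvent and 38 and 90 with MS-275, for a fitted change of -1.69 (standard error 0.332, limma-voom adjusted p = 0.0141). Its exons share 188 bases with *Gm16401* on the opposite strand, and the counting did not use strand.

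*Msi1* encodes the RNA-binding protein Musashi-1, a translational regulator of neural stem cells (chromosome 5, 115879608 to 115905707, plus strand). Its value was 0.0718 and 0.133 with solvent and 0.0474 and 0.0828 with MS-275. The groups overlapped, since MS-275 replicate 2 was above solvent replicate 1, yet MS-275 was below solvent within each replicate. Its fitted log2 change was -0.60 (standard error 0.498, adjusted p = 0.644 without the block and 0.0736 with it). The positions were 493 and 238 with solvent and 272 and 172 with MS-275, with a change of -0.64 and an adjusted p of 0.330 without the block and 0.00936 with it from limma-voom. With quantile normalization or median-ratio scaling added to the block, the adjusted p of the values was 0.0171 and 0.00869. The call for *Msi1* thus depended on the block, the scaling and the readout.

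*Fabp7* encodes the brain fatty acid binding protein, a lipid carrier of radial glia (chromosome 10, 57504687 to 57508256, plus strand). Its value was 0.00268 and 0.00559 with solvent and 0.0265 and 0.0210 with MS-275. The lowest MS-275 library was above the highest solvent library by more than either group spread. The mean was 5.74-fold higher, from 0.0041 ± 0.0021 (SD, n = 2) to 0.0237 ± 0.00386 (SD, n = 2). Limma put the log2 change at 1.66 (standard error 0.529, adjusted p = 0.143 without the block and 0.001 with it). The reads behind it were few, with 7 and 2 distinct positions with solvent and 28 and 24 with MS-275. The ratio of positions, scaled to the library totals, was 4.91 within replicate 1 (exact 95% interval 2.09 to 13.3) and 10.8 within replicate 2 (2.67 to 93.9). Both intervals, which cover counting error only, lay above equality. Limma-voom gave 2.64 (standard error 0.704, adjusted p = 0.0369).

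*Slc1a3* encodes GLAST, the glutamate and aspartate transporter of radial glia and astrocytes (chromosome 15, 8584124 to 8660764, minus strand). It had the largest decrease of the 9 markers. Its value was 0.120 and 0.0624 with solvent and 0.0230 and 0.0158 with MS-275. Both MS-275 libraries were below both solvent libraries, within each replicate by 5.23-fold and 3.95-fold. The mean went from 0.0913 ± 0.0409 (SD, n = 2) to 0.0194 ± 0.00509 (SD, n = 2). On the log2 scale this was a change of -1.93 (standard error 0.587, adjusted p = 0.128 without the block and 0.000141 with it). The positions showed the same order, with 434 and 510 for solvent against 92 and 116 for MS-275. Their log2 change was -2.11 (standard error 0.247) with an adjusted p of 0.00484 from limma-voom without a block, the lowest adjusted p of the 7 markers tested on positions.

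*Gfap* encodes the glial fibrillary acidic protein, the intermediate filament of mature astrocytes (chromosome 11, 102748650 to 102762226, minus strand). Its value was 0.00271 and 0.00048 with solvent and 0.00903 and 0.00379 with MS-275. Each MS-275 library was above both solvent libraries, but solvent replicate 1 and MS-275 replicate 2 were near each other. Its log2 change was 0.77 (standard error 0.333, adjusted p = 0.270 without the block, 0.0247 with it and 0.226 with quantile normalization added to it). The positions on its exons were 3 and 7 with solvent and 18 and 27 with MS-275. Limma-voom on these positions gave 2.23 (standard error 0.633, adjusted p = 0.0457) without a block, and an adjusted p of 0.0560 with median-ratio sizes. The positions were less concentrated on exons than those of *Slc1a3*. Of the positions within *Gfap*, 23.1% (Wilson 95% interval 8.18 to 50.3) and 53.8% (29.1 to 76.8) lay on exons with solvent, and 40.9% (27.7 to 55.6) and 62.8% (47.9 to 75.6) with MS-275. Per kilobase, exons had 0.666 and 2.59 times as many positions as introns with solvent and 1.54 and 3.74 times as many with MS-275. For *Slc1a3* the same ratio was 8.84 to 22.6 over the libraries, and for *S100b* it was 3.27 to 3.92 in the 3 libraries with positions on its introns. The RefSeq start of *Gfap* also lay 3712 bases inside the annotated gene.

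*S100b* encodes a calcium-binding protein of astrocytes and Schwann cells (chromosome 10, 75716598 to 75723904, plus strand). Its value was 0.00073 and 0.00213 with solvent and 0.00523 and 0.00375 with MS-275. The MS-275 libraries were above the solvent libraries, by 7.16-fold within replicate 1 and 1.76-fold within replicate 2. The fitted log2 change was 0.57 (standard error 0.260, adjusted p = 0.303 without the block and 0.0894 with it), so *S100b* did not pass. It had 7 and 1 positions with solvent and 10 and 8 with MS-275, too few to be tested, and the ratio within replicate 1 was 1.75 (exact 95% interval 0.602 to 5.42) and within replicate 2 it was 7.17 (0.961 to 318). Both intervals include equality.

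*Olig1* and *Olig2* encode basic helix-loop-helix factors of the oligodendrocyte lineage and lie 41092 bases apart on chromosome 16 (*Olig2* from 91225795 to 91228922 and *Olig1* from 91270014 to 91272184, both on the plus strand). The value of *Olig1* was 0.00496 and 0.00276 with solvent and 0.0232 and 0.0189 with MS-275. The MS-275 libraries of *Olig1* lay well above the solvent libraries, 4.68-fold within replicate 1 and 6.84-fold within replicate 2. It changed by 1.56 on the log2 scale (standard error 0.503, adjusted p = 0.147 without the block and 0.00104 with it). The 2171 bases of its single exon held 13 and 9 positions with solvent and 65 and 52 with MS-275, and limma-voom gave 2.41 (standard error 0.521, adjusted p = 0.0187). The value of *Olig2* was 0.00084 and 0.00018 with solvent and 0.00233 and 0.00328 with MS-275. *Olig2* was at the limit of what the libraries could show, and it entered the test through the MS-275 libraries alone, since both solvent values were under 0.001. A gene that enters in this way has to differ. The fitted change was 0.50 (standard error 0.202, adjusted p = 0.237 without the block and 0.0935 with it). It had 1 and 2 positions with solvent and 14 and 6 with MS-275. The ratio was 17.2 within replicate 1 (exact 95% interval 2.61 to 726) and 2.69 within replicate 2 (0.481 to 27.2), and the second interval includes equality.

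By the limma test without a block, 0 of the 9 markers passed an adjusted p of 0.05, and 1 of the 20336 genes tested passed as higher (0.00492%) and 0 as lower (0%). At an unadjusted p under 0.05, 5 markers were higher and 1 lower, against 14.6% and 2.77% of all genes tested. With the replicate block, 4 markers rose (*Nes*, *Fabp7*, *Gfap* and *Olig1*) and 2 fell (*Prom1* and *Slc1a3*), where 21.0% of all genes tested were called higher and 6.46% lower. On distinct positions without a block, 7 markers could be tested, and the same 4 rose and the same 2 fell, against 14.5% and 4.92% of 17923 genes. With the block on positions *Msi1* was called lower as well, where 28.5% of the genes were called higher and 13.1% lower. The fold rule, which asks for a difference of at least 2-fold in the same direction within both replicates with values under 0.001 set to 0.001, was met by 5 markers as higher (*Nes*, *Fabp7*, *Gfap*, *Olig1* and *Olig2*) and by 2 as lower (*Prom1* and *Slc1a3*). Of all 28250 genes 11.5% met it as higher and 2.04% as lower. No marker changed direction between readouts, as the plot of fitted changes shows.

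**Figure D2:**
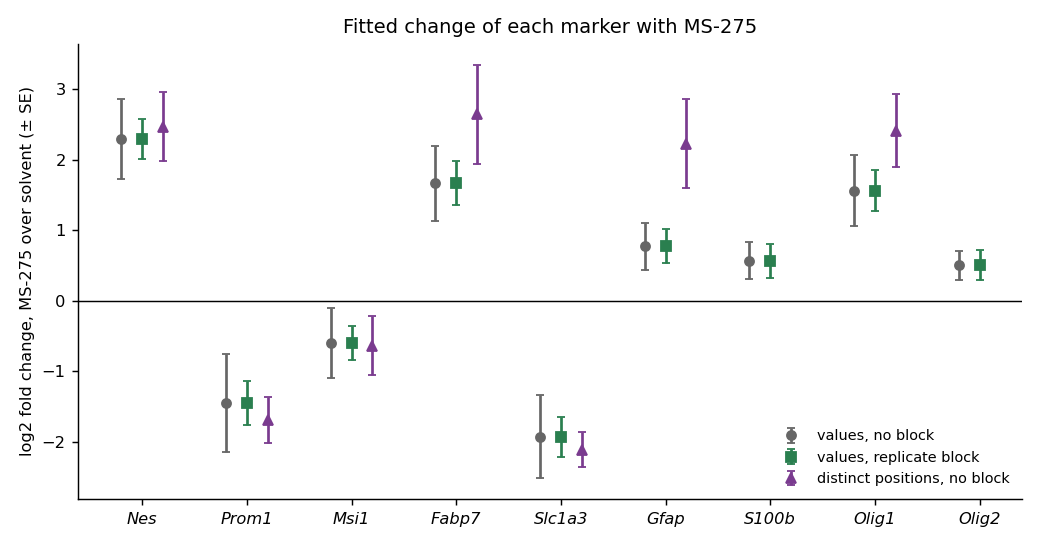
Fitted log2 fold change of MS-275 over solvent for each marker, with bars of 1 standard error, from the values without a block (circles), the values with the replicate block (squares) and distinct positions without a block (triangles). *S100b* and *Olig2* had too few positions to be tested and have no triangle. The changes of *Fabp7*, *Gfap* and *Olig1* are larger on positions, where no pseudocount of 0.005 is added.

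Levels can be compared between the markers only per length, and distinct positions per kilobase of exon and per 1000000 positions on the exons of the library (PPKM here) were used for this. With solvent, *Msi1* was at 11.7 and 5.95 PPKM, *Slc1a3* at 7.01 and 8.66 and *Prom1* at 6.17 and 6.64. The level of *Msi1* overlapped with those of the other 2, so its place among the 3 could not be read from the solvent libraries. *Slc1a3* was above *Prom1* in both, though its lower library (7.01) was close to the higher library of *Prom1* (6.64). *Nes* came next at 5.25 and 1.36, with a wide gap between its libraries, and the 5 other markers were under 1 PPKM in both solvent libraries. With MS-275 the order was different. *Nes* led with 17.7 and 12.9 PPKM, *Msi1* (7.93 and 3.85) overlapped with *Olig1* (5.07 and 3.11), and *Olig1* and *Fabp7* (3.79 and 2.49) were above *Slc1a3* (1.82 and 1.77) in both libraries. *Prom1*, at 1.42 and 2.59, overlapped with *Slc1a3* and *Fabp7*. *S100b* (1.14 and 0.700), *Gfap* (0.722 and 0.832) and *Olig2* (0.972 and 0.320) stayed at the lower end, and these 3 overlapped. *Nes* was thus the most abundant of the 9 with MS-275 but not with solvent.

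The 4 markers with the most positions were covered over their whole exon length, which was cut into 10 bins of equal size from the 5′ to the 3′ end. All 10 bins of *Nes*, *Prom1* and *Slc1a3* held positions in each library, and of *Msi1* 9 or 10 did. In the last 5 bins of *Nes* lay 54.9% (Wilson 95% interval 48.6 to 61) and 65% (52.4 to 75.8) of the positions with solvent, and 67.5% (63.8 to 70.9) and 53.6% (49.7 to 57.5) with MS-275, so the shape differed between libraries but not by group. For *Slc1a3* the last 5 bins held 79.3% (75.2 to 82.8) and 81.6% (78 to 84.7) with solvent, and 58.7% (48.5 to 68.2) and 74.1% (65.5 to 81.2) with MS-275. The bin at its 3′ end held 145 and 150 positions with solvent against 35 and 30 with MS-275, and was the highest in each library but MS-275 replicate 2, where the bin before it held 32. Introns of *Slc1a3* also held fewer positions, 307 and 180 with solvent and 83 and 74 with MS-275. In *Msi1* the last bin held 149 and 63 positions with solvent and 105 and 30 with MS-275, so that the replicates differed more than the groups there.

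**Figure D3:**
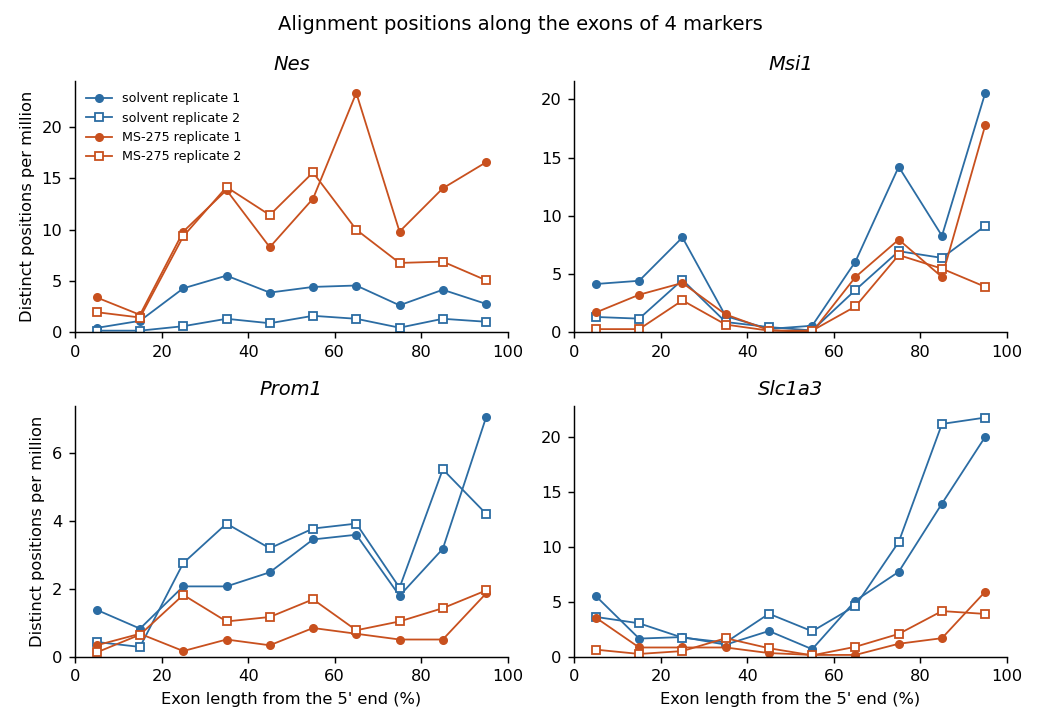
Distinct alignment positions per 1000000 on exons in each of 10 bins of the exon length from the 5′ end, for *Nes*, *Msi1*, *Prom1* and *Slc1a3* in the 4 libraries. The MS-275 libraries are above the solvent libraries along *Nes* and below them over the 3′ part of *Slc1a3*, while the lines of *Msi1* cross.

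Low genes were called higher more often than high genes in these libraries, and the markers were set beside genes of a like mean value. This mean includes the MS-275 values, so a rise moves a gene up: *Nes* had a solvent mean of 0.0160, under the limit of 0.02. The lower range also holds genes that entered the test through the MS-275 libraries alone, such as *Olig2*. Part of the rises in that range was thus set by the filter. Among the 7515 genes tested with a mean value under 0.02 over the 4 libraries, 27.1% were called higher and 2.37% lower with the block, and their median change was 0.35 on the log2 scale. *Fabp7*, *Gfap*, *S100b*, *Olig1* and *Olig2* belong to this range, and the 90th percentile of the log2 fold changes there was 1.21, a size that *Fabp7* and *Olig1* exceeded while *Gfap*, *S100b* and *Olig2* did not. Among the 12821 genes with a mean of 0.02 or more, 17.5% were called higher and 8.86% lower, and the median was 0.10. *Nes*, *Prom1*, *Msi1* and *Slc1a3* belong here. The 90th percentile was 1.08 and the 10th percentile -0.65, so that *Nes* was above the former and *Prom1* and *Slc1a3* below the latter, and *Msi1* lay within them. *Nes* exceeded 51.4% and 60.3% of all listed genes in the solvent libraries and 70.3% and 74.9% in the MS-275 libraries. *Slc1a3* exceeded 75.0% and 71.3% with solvent and 53.2% and 53.5% with MS-275.

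**Figure D4:**
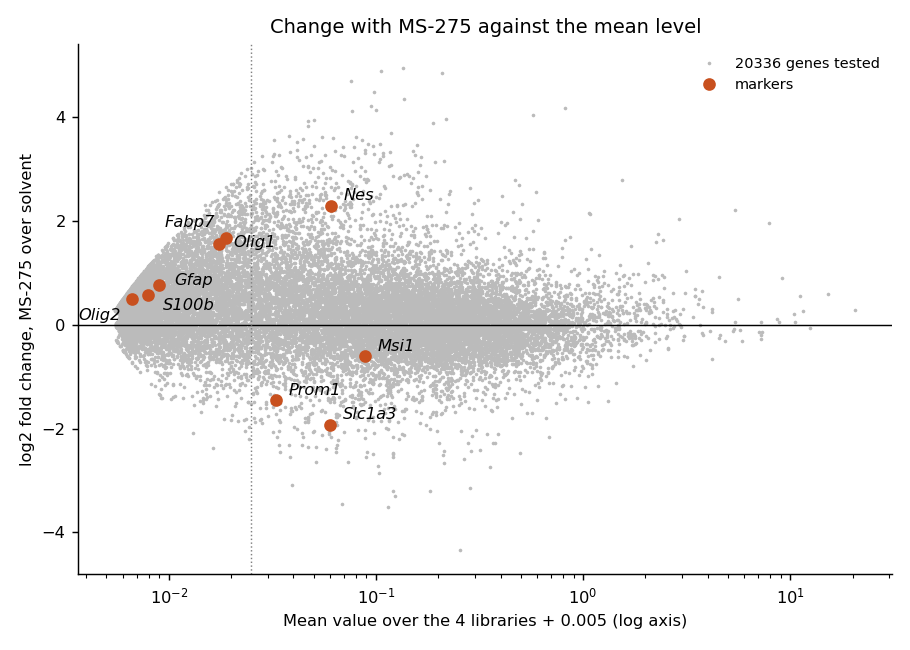
Log2 fold change of MS-275 over solvent against the mean value over the 4 libraries plus 0.005 (log axis), for the 20336 genes tested (grey) and the 9 markers (orange). The dotted line stands at a mean value of 0.02. The 5 markers to its left share their direction with most of the genes of that level, and *Slc1a3* and *Prom1* are in the lower part of the genes to its right.

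The relatives of each marker were followed to see whether a family moved as its marker did. Over all genes tested the median change was 0.20 on the log2 scale, against which each family is set, and no family member passed on the values without the block. The counts with the block are to be read against the 21.0% of all genes tested that were called higher and the 6.46% called lower. Those with quantile normalization added are to be read against 2936 genes higher and 2961 lower of 20336. For those on positions without a block the shares of all genes were 14.5% and 4.92%. The 9 markers themselves had a median of 0.57. Quantile normalization, which puts the median of all genes at -0.03, is named below where it moves a count. The intermediate filament genes, to whose family *Nes* and *Gfap* belong, rose in 10 of 16 cases with the block and fell in 0, with a median of 0.92 (8 and 1 with quantile normalization). On distinct positions without a block 10 of 16 rose and 0 fell. *Nefm*, a neurofilament gene, rose most, from 0.0075 and 0.00533 with solvent to 0.0947 and 0.192 with MS-275 (log2 fold change 3.62, adjusted p = 2.7e-06 with the block). *Bfsp2*, a lens filament gene, rose by 2.43 on this scale. *Lmnb1*, a nuclear lamin, had a log2 fold change of -0.64 and did not pass (adjusted p = 0.109 with the block), nor did *Ina*, a neuronal filament gene (-0.18).

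The 6 relatives of *Slc1a3* are glutamate and neutral amino acid transporters. With the block, 3 of them rose and 0 fell, with a median of 0.64, and with quantile normalization in the same fit 1 rose and 0 fell. On positions without a block 2 of the 6 rose (*Slc1a1* and *Slc1a2*). *Slc1a1*, the neuronal carrier EAAC1, went from 0.0596 and 0.0134 with solvent to 0.150 and 0.104 with MS-275 (log2 fold change 1.92, adjusted p = 0.00026 with the block). *Slc1a2*, the astrocyte carrier GLT-1, was near the floor with solvent (0.00174 and 0.00067) and at 0.0058 and 0.00596 with MS-275 (0.82, adjusted p = 0.0177 with the block), and *Slc1a6* rose by 1.08 with an adjusted p of 0.0211. Under quantile normalization *Slc1a2* and *Slc1a6* did not pass (adjusted p = 0.156 and 0.223). *Slc1a5* (0.33) and *Slc1a7* (0.46) did not pass, and the neutral amino acid carrier *Slc1a4* had -0.49 with an adjusted p of 0.143.

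Of the fatty acid binding and retinoid binding relatives of *Fabp7*, 11 of 14 were listed and 10 tested, and 5 rose and 0 fell with the block, with a median of 0.87 (2 of 6 rose on positions without a block). *Crabp2*, a carrier of retinoic acid, rose by 1.92 (adjusted p = 8.1e-05) and *Fabp4*, the adipocyte form, by 1.52 (adjusted p = 0.00204). *Fabp3*, the heart form, had -0.25 and did not pass. The bHLH relatives of *Olig1* and *Olig2* were low throughout: 9 of 12 listed genes were tested, 6 rose and 0 fell with the block, and *Neurod2* and *Neurod6* were listed at 0 in every library. Of the 9, 3 entered the test through the MS-275 libraries alone, as *Olig2* did, so this count had to lean upwards. With quantile normalization 1 rose and 1 fell, and on positions without a block 1 of 4 rose. *Neurog3* had -0.61 and did not pass. Of the S100 list 3 of 11 tested genes rose and 0 fell (27.3% higher, near the share of all genes), and 1 of 9 rose on positions without a block. *S100a14* (1.57) and *S100a13* (0.99) led, while *S100a16* (-0.42) and *S100pbp* (-0.06) did not pass. *Prom2* had a log2 fold change of 0.31 and *Msi2* of -0.59, and neither passed with the block (adjusted p = 0.355 and 0.0751, and 0.00801 for *Msi2* with quantile normalization added).

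Wider marker lists of the same cell classes did not move in 1 direction. Of 25 further genes of neural stem cells and radial glia, all tested, 6 rose and 1 fell with the block (4 and 2 with quantile normalization), and their median of 0.28 was close to that of all genes, as was the share called higher (24%). Of the 25, 4 entered the test through the MS-275 libraries alone, and 2 of these are among the 6. On positions without a block 3 of 21 rose and 0 fell. *Ncan*, a proteoglycan of the neural matrix, rose from 0.0231 and 0.0105 with solvent to 0.134 and 0.117 with MS-275 (log2 fold change 2.64, adjusted p = 1.2e-05), and *Lfng*, a modifier of Notch receptors, by 1.70. *Sox1*, a transcription factor of the early neural plate, fell from 0.0299 and 0.00897 to 0.00613 and 0.00371 (-1.16, adjusted p = 0.012). *Msi2* is in this list too. Of the astrocyte list 7 of 21 tested genes rose and 2 fell, with a median of 0.50 (4 and 2 with quantile normalization, and 5 and 2 of 18 on positions without a block). *Id3* (2.69) and *Clu* (2.14), neither exclusive to astrocytes, rose most. The gap junction gene *Gja1* fell by 0.95 and *Nfib*, a transcription factor of gliogenesis, fell by 1.77 on the log2 scale, so that *Slc1a3* was not alone in its direction among astrocyte genes. Of the oligodendrocyte list 10 of 20 tested genes rose and 1 fell, with a median of 0.73 (8 and 5 with quantile normalization, and 10 and 1 of 17 on positions without a block). Of the 20, 4 entered through the MS-275 libraries alone and 3 of these are among the 10, so the count and the median had to lean upwards. *Sox8* (2.77) rose most, and *Cldn11*, which is one of the 3, had 2.75, while *Gm98*, the symbol listed for the myelin regulatory factor, fell by 1.57, and *Ermn* and *Omg* were listed at 0 in every library.

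**Figure D5:**
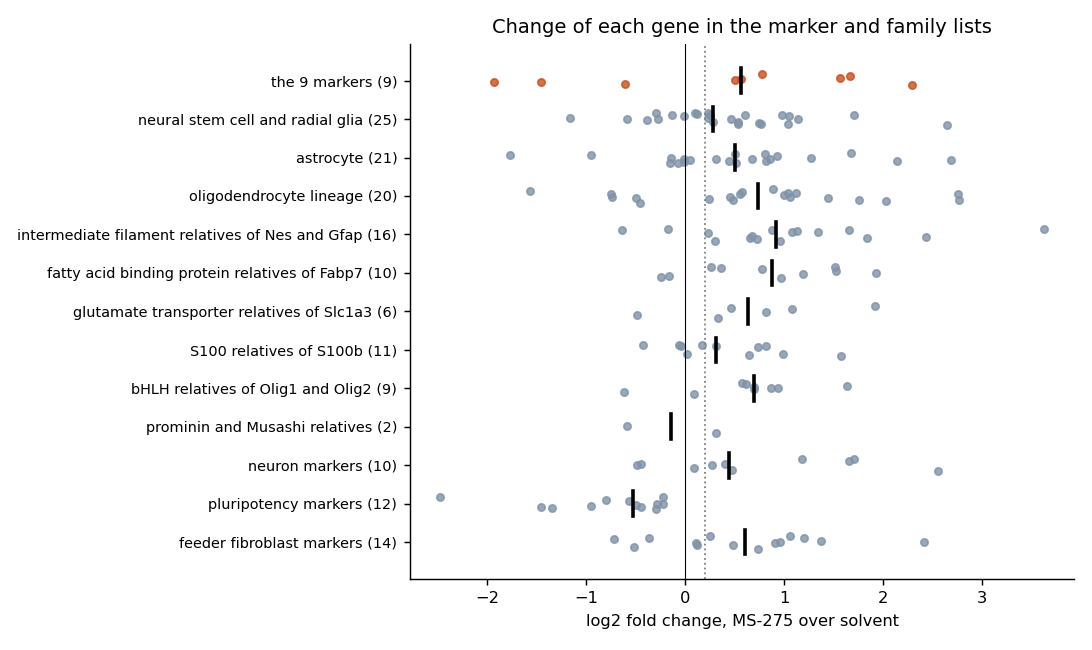
Log2 fold change of MS-275 over solvent, from the values, for each tested gene of the 9 markers (orange) and of 12 lists (blue, with the number tested in brackets). Short bars are medians and the dotted line is the median of all genes tested, 0.20. The markers spread from -1.93 to 2.29, and the list of pluripotency markers is the one whose genes all lie below 0.

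Markers of the other cells that a culture could hold moved as well, and their part in the results above was not tested. The summed value of 15 fibroblast genes, which would mark feeder cells, was 0.377 and 0.321 with solvent and 0.728 and 0.702 with MS-275. With the block 7 of the 14 tested rose and 0 fell (4 and 3 with quantile normalization). *Col1a1* rose by 2.41 and *Fbn1* by 1.37, while *Dcn* (-0.72) and *Col3a1* (-0.52) did not pass. On positions without a block 3 of 13 rose and 0 fell, against 14.5% and 4.92% of all genes. *Fbn1* did not pass there (limma-voom adjusted p = 0.0537). None of the 15 was at 0 in all libraries. Of the neuron markers 4 of 10 tested rose and 0 fell with the block (4 and 2 with quantile normalization). On positions without a block 4 of 10 neuron markers rose and 0 fell. *Elavl3* (2.56) and *Syt1* (1.70) led, and *Stmn2* (-0.48) and *Gap43* (-0.45) did not pass. The 12 pluripotency markers were all tested. With the block 4 of them fell and 0 rose (6 and 0 with quantile normalization), with a median of -0.53. On positions without a block 2 of the 12 fell and 0 rose. *Tet1* fell by 2.47 and *Utf1* by 1.45 on the values. Their summed value was 6.78 and 24.7 with solvent and 5.22 and 14.2 with MS-275, against 0.257 to 0.271 (solvent) and 0.251 to 0.253 (MS-275) for the 9 neural markers together. The sum of the deposited values of the 9 markers was thus nearly the same in the groups while its members were not. This holds for these values alone, whose formula is not stated. No sum of positions per exon length was taken.

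Genes were then sought whose values over the 4 libraries resembled those of a marker that passed with the block, by the Euclidean distance of centred log2(value + 0.005) among tested genes with a mean value within 2-fold. The nearest to *Nes* were *Gm11546* (distance 0.267) and *LOC100503834* (0.271) of 4791 candidates. Those nearest to *Slc1a3* were *Xaf1* (0.182) and *Ppap2b* (0.190) of 4781, and those nearest to *Prom1* were *Myo1f* (0.180) and *C77370* (0.182) of 4094. *Fabp7* was nearest to *1700021F07Rik* (0.0603) and *Rxrg* (0.117), *Olig1* to *Fbn2* (0.0582) and *Col7a1* (0.0729), and *Gfap* to *Fam124b* (0.0532) and *Ckm* (0.0774). A pattern over 4 libraries holds little information, and these names describe likeness alone.

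Of the protein-coding genes next to a marker, those beside *Nes* were *Crabp2*, 17702 bases away, which rose by 1.92 as given above, and *Bcan*, another brain proteoglycan gene, 7080 bases away, with values of 0.015 and 0.00487 with solvent and 0.0316 and 0.0155 with MS-275 (log2 fold change 0.96, adjusted p = 0.0286 with the block, 0.307 with quantile normalization added and 0.0625 with median-ratio scaling). *Pkib*, 43769 bases from *Fabp7*, rose by 2.09 (adjusted p = 0.000104 with the block), while *Smpdl3a* on the other side had -0.09. *Prmt2*, 15988 bases from *S100b*, rose by 1.01, while *Pcnt* on the other side had -0.50 and did not pass (adjusted p = 0.172 with the block). *Fgfbp1*, 11863 bases from *Prom1*, had values of 0.00265 and 0.05625 with solvent and 0.06102 and 0.04929 with MS-275. The groups overlapped, and MS-275 was above solvent within replicate 1 but below it within replicate 2. The fitted log2 fold change of *Fgfbp1* was 1.47 (limma adjusted p = 0.0408 with the block, and 0.0556 with quantile normalization added). It came from the low value of solvent replicate 1. *Tapt1*, on the other side of *Prom1*, had -0.61 and did not pass. The neighbours of *Slc1a3*, *Nipbl* and *Ranbp3l*, lie 189661 and 257662 bases away and did not pass (-0.22 and 0.38). Those of *Msi1*, *Cox6a1* (0.53) and *Pla2g1b* (0.30), and *Kif18b* beside *Gfap* (0.05) did not pass either.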

How the data were processed

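RNA-seq libraries from 2 solvent and 2 MS-275 samples were grouped by their titles, and the library called a duplicate was taken as replicate 2. Reads of poly(A) RNA had been mapped by the authors to mm9 and turned into a deposited signal value per gene with Genomatix; formula, aligner and versions are not given in the sources used here. The deposited ratio tables hold comparisons of the authors and were not used. The control vehicle is called solvent because the sources name different ones.

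Values were tested with limma 3.58.1 in R 4.3.3 (lmFit, eBayes with a trend), as described in the report. Alignments were counted with Python 3.11.15 by their midpoint on the union of exons of GENCODE M1 (mm9), on either strand, all or once per position and strand. Genes with at least 10 positions in at least 2 libraries (17923) were tested with limma-voom on library totals. The columns of the authors call replicate 1 of both groups old, and deviations from the group means correlated at 0.764 between libraries of the same number over 20336 genes (0.522 on positions), so the replicate block is given beside each call it changes. The fits of the values and of the distinct positions, each with and without the block, were run on simulated data. The other settings were not. A minimum of recovered changes was not required of the values without the block.

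The markers, gene lists and tests were chosen with earlier results of these data known. All 9 markers are named, with the 2 genes of each list that changed most in each direction among those with a mean value of at least 0.01, all genes of lists of 6 or fewer, the 2 genes most like each marker that passed with the block, and adjacent protein-coding genes. Of these, a gene of the oligodendrocyte list and neighbours without a test are not reported here. Pseudocounts, filters, scalings and left-out libraries were varied; fits with median-ratio sizes on positions were added after seeing the data.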

Additional observations from a re-analysis of the deposited data

How the results depend on the processing

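No marker reversed its direction under any alternative. On the values without a block, 0 markers passed under either other pseudocount (0.001 or 0.02), without the filter or without the trend in eBayes. The same held after rescaling by quantiles or median ratios. In each of these settings 0 of all genes tested passed as well. With a stricter filter (mean of 0.01) 6 markers could be tested and 0 passed, against 466 genes higher and 65 lower of 14740. All alignments without a block gave 0 and 0 of the 7 markers tested, against 442 genes higher and 21 lower of 18267. The replicate block called 4 higher and 2 lower, also with either pseudocount. It called 4 and 3 with median-ratio scaling, and 3 and 3 with quantile normalization, where *Gfap* was lost and *Msi1* gained. Of all 20336 genes, the block called 4216 higher and 1220 lower with a pseudocount of 0.001, and 3790 and 1158 with 0.02. Distinct positions gave 4 higher and 2 lower without the block and 4 and 3 with it, and all alignments 4 and 3 with it. Of the 18267 genes tested on all alignments, 4925 were called higher and 2027 lower with the block. Median-ratio sizes on positions, chosen after seeing the data, gave 3 and 2 without the block and 4 and 3 with it. Without the block *Gfap* had a limma-voom adjusted p of 0.056 there. Of 17923 genes these fits called 2092 higher and 1307 lower without the block, and 4316 and 3834 with it. With a floor of 0.01 the fold rule found 2 markers higher (*Nes* and *Fabp7*), while *Prom1* and *Slc1a3* still met it as lower. At 3-fold it found 1 lower (*Slc1a3*), while *Nes*, *Fabp7*, *Gfap* and *Olig1* met it as higher. The shares of all genes under these variants are not given here. Leaving out MS-275 replicate 2 moved *Prom1* from -1.45 to -0.83, leaving out MS-275 replicate 1 moved *Gfap* from 0.77 to 0.44, and leaving out solvent replicate 2 moved *Msi1* from -0.60 to -0.18. Such a fit assumes that the lone library of a group varies like the others. Median-ratio scaling and quantile normalization moved the median of all genes from 0.20 to -0.01 and -0.03, and genes called with the block went from 4277 higher and 1314 lower to 3376 and 2861, and to 2936 and 2961. The cause of these shifts was not tested. Depth limits *S100b*, *Olig2*, *Gfap* and *Fabp7* most, with at most 28 positions in a library.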
